A study of Mus musculus with 8 samples.

Results

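Type I and type II interferons are secreted signals that bind receptors on the cell surface, and the JAK kinases there phosphorylate STAT proteins, which enter the nucleus and switch on interferon-stimulated genes (ISGs). Many ISGs encode antiviral effectors, and others cut proteins into peptides and load them on major histocompatibility complex (MHC) class I molecules for display to T cells. In the brain, endothelial cells of the vessel wall and microglia, the resident macrophages, are known to respond to interferon, and a low tonic level of ISG transcripts is found in healthy tissue. The 37 genes described here, of 31053 in the count matrices, are listed by name: 4 receptor chains, 4 kinases and STATs, 6 interferon regulatory factors (IRFs), 14 ISGs, 3 guanylate-binding proteins (GBPs) and 6 genes of MHC class I antigen presentation. All 37 were present in the matrices.

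The libraries are droplet single-cell RNA sequencing of the prefrontal cortex (PFC) and of the striatum of WT and Setd1a+/- littermates, male mice on C57BL/6N, with no treatment named in the labels, 2 libraries per genotype and tissue and 2 mice pooled in each. The mutant allele is a CRISPR frameshift before the SET domain of Setd1a, a histone H3K4 methyltransferase, from 1 selected founder mutation backcrossed to C57BL/6N. The labels name the striatal tissue NAc, and the methods name it dorsal and ventral striatum. The labels give an age of 8 to 10 weeks and the methods another, and age entered no test.

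In all, 23687 cells carried the authors' annotation, 8997 in PFC and 14690 in the striatum, 1508 to 4361 per library, with a median of 2302.5 to 3042 unique molecular identifiers (UMIs) per cell. Over all annotated cells the level of Setd1a, in counts per 1000000 UMIs (CPM), was 8.45 and 11.2 in the WT libraries of PFC, 5.59 and 9.33 in the Setd1a+/- ones, 13.4 and 15.2 in the WT libraries of the striatum and 9.16 and 12.5 in the Setd1a+/- ones, with 46 to 206 UMIs per library. These differences did not pass the test (log2 FC of -0.39 with an SE of 0.43 in PFC and of -0.38 with an SE of 0.28 in the striatum), and 3' tags of a frameshift allele check the labels little. The microglia of the striatal Setd1a+/- replicate 2 library stood apart: it had 24 of them, their 6 microglial markers summed to 7560 CPM against 12126 to 16307 in the other striatal libraries, and results that rest on it are given with and without it. Pairs of libraries shared 1 to 24 barcodes, where 4.47 to 23.9 were expected from their numbers. The cells annotated as endothelial, 1562 in PFC and 1998 in the striatum, were split by marker UMIs after the data were seen into 1415 and 1789 endothelial cells, 134 and 181 mural cells (pericytes and smooth muscle) and 13 and 28 unassigned cells, so they are called the endothelial group here.

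A pair of DNA elements are textbook sites of this pathway. They are the interferon-stimulated response element (ISRE), which IRFs bind, and the gamma-activated site (GAS). RefSeq promoters of build GRCm38.p6 were matched by symbol for 34 of the 37 members, and the 250 bases before a gene's start were searched. The ISRE core, GAAA and again GAAA with any 2 bases between (NN), sought on both strands, was in a promoter of 13 of the 34 and of 3.46% of all 27025 gene symbols, over the same length. The GAS core TTCNNNGAA, which is its own reverse complement, was in a promoter of 9 of the 34 and of 8.13% of all symbols. The members with an ISRE core were Stat2, Irf2, Ifit1, Ifit3, Ifitm2, Isg15, Bst2, Oas1a, Rsad2, Gbp2, Gbp3, Gbp7 and B2m, and those with a GAS core were Ifnar2, Irf1, Irf2, Irf8, Ifit2, Bst2, Oas1a, Gbp7 and Psmb8. A match is a description of these letters and not a mapped site. Because the GBPs, Bst2, B2m and the IFIT genes recur in the results below, stretches of their promoters are shown, with that of Isg15 for its run of overlapping matches and that of Irf1 as an example of GAS. Capitals mark the ISRE matches, on either strand, and in Irf1 the GAS match. A GAS match of Bst2 that overlaps the start of its capitals is not marked. The stretches run 5′ to 3′ along the gene. Gbp7, Gbp3 and Gbp2 lie in this order on chromosome 3, at chr3:142530268-142530307 (plus strand), chr3:142559984-142560029 (plus strand) and chr3:142620589-142620628 (plus strand). Ifit3 is at chr19:34583358-34583431 (plus strand), Ifit1 at chr19:34640770-34640828 (plus strand), Isg15 at chr4:156200860-156200911 (minus strand), Bst2 at chr8:71537572-71537617 (minus strand), B2m at chr2:122147533-122147572 (plus strand) and Irf1 at chr11:53769909-53769947 (plus strand).
Gbp7: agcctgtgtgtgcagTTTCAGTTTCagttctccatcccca
Gbp3: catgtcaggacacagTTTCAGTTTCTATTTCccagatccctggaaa
Gbp2: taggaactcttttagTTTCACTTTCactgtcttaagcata
Ifit3: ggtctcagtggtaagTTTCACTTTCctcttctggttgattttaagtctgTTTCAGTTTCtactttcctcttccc
Ifit1: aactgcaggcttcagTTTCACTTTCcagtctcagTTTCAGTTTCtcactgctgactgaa
Isg15: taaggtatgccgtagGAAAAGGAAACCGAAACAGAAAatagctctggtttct
Bst2: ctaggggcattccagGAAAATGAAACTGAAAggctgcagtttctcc
B2m: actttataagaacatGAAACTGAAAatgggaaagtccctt
Irf1: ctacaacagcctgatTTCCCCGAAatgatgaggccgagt

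Most members had their highest level in the endothelial group, and a smaller set in microglia. Levels are CPM after adding up the UMIs of a library's cells of that type, with 4 libraries per tissue, and compare 1 gene between cell types. The endothelial group held the highest mean of 26 of the 37 members in PFC and of 28 in the striatum, and microglia held that of 8 and 5, of which 7 and 4 had at least 200 UMIs (6.67% and 4.44% of all genes were highest in microglia). The highest type was the same in both tissues for 31 members. Since the cell types are clusters of the same cells, these levels are a description with no test. Among members with at least 200 UMIs in the tissue, the endothelial group was highest for 24 of 34 in PFC and for 26 of 33 in the striatum, and over all genes with that many UMIs it was highest for 17.8% and 14.9%. For 15 of these members in PFC and 16 in the striatum, the lowest of the 4 endothelial libraries lay above the highest library of every other type, which held for 7.31% and 6.27% of all genes. Microglia were highest and did not overlap any other type for 4 members in PFC and 2 in the striatum, against 2.37% and 1.02% of all genes. In bulk sums of this kind, fewer cells of a type that express a gene and less RNA per cell cannot be told apart.

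**Figure D1:**
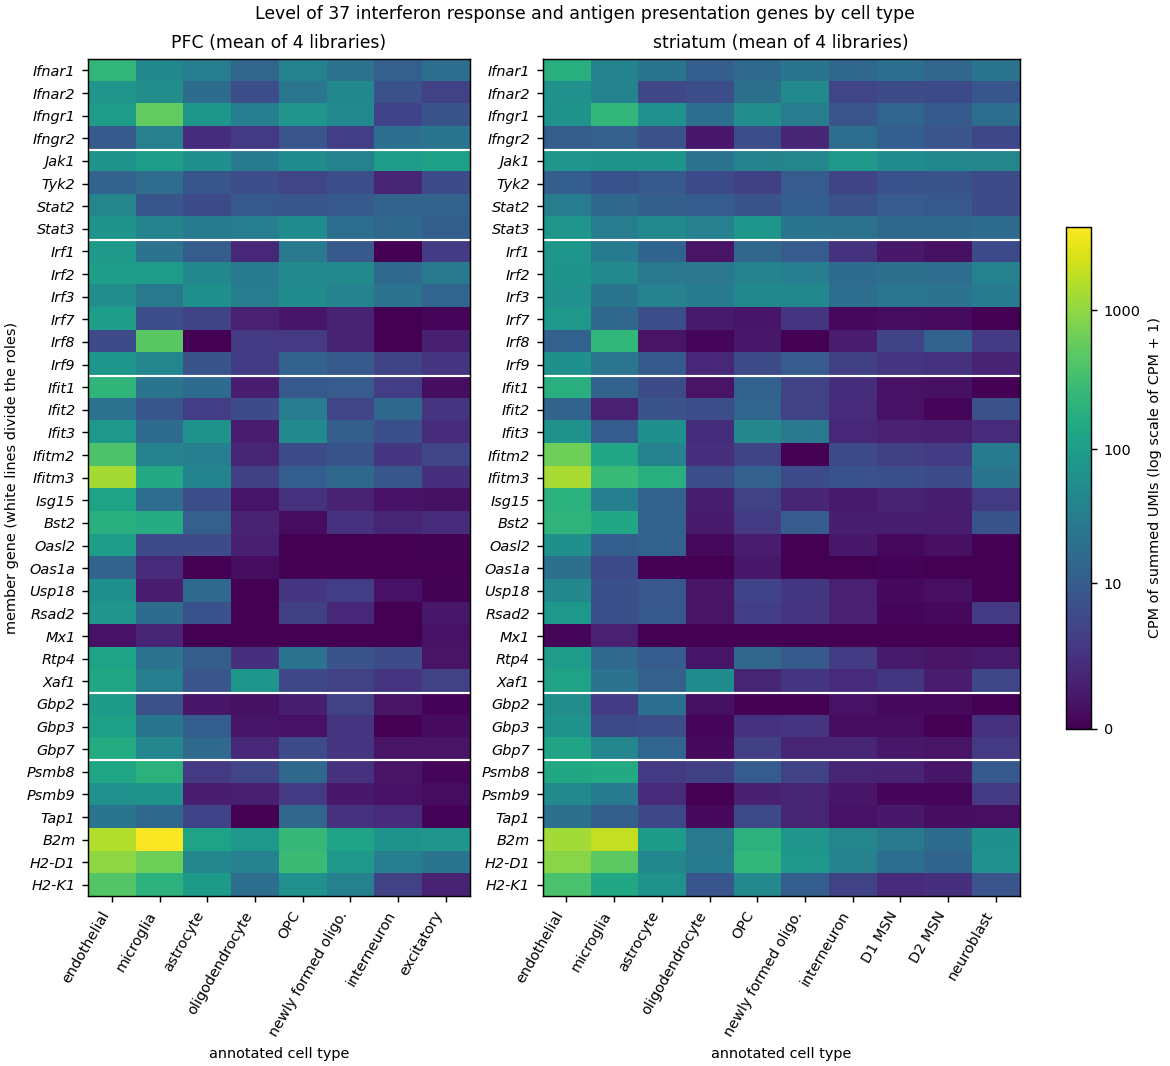
Mean CPM of each of the 37 members (rows, grouped by role) in each annotated cell type (columns) of PFC and striatum, on a log scale of CPM + 1, each cell the mean of 4 libraries. The endothelial column is the brightest for 26 members in PFC and 28 in the striatum, Irf8 and Ifngr1 are brightest in microglia, and Jak1 and Irf3 are spread over all types.

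Of the receptor chains, Ifnar1, which with Ifnar2 forms the type I interferon receptor, was at 357 and 152 CPM in the WT and 218 and 210 in the Setd1a+/- endothelial groups of PFC, and at 187, 207, 182 and 138 CPM in the same order in the striatum. No library of another type exceeded 70.9 CPM in PFC or 53.6 in the striatum. Ifnar2 overlapped between types, with means of 74.9 CPM in the endothelial group and 58.8 in microglia of PFC. Ifngr1, the ligand-binding chain for interferon gamma, was instead a microglial gene, at 297 to 741 CPM in PFC microglia against at most 111 in any library of another type, and at 105 to 366 against at most 82.2 in the striatum. Ifngr2, its partner chain, was low everywhere, with a highest mean of 36.4 CPM in PFC microglia. Ifnar1 and Ifngr1 thus had different leading cell types in both tissues.

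Downstream of the receptors, the kinase Jak1 was broad, with its highest means in excitatory neurons of PFC (111 ± 9.59 CPM, SD, n = 4) and in interneurons of the striatum (85.1 ± 11.0), and 71.6 and 74.5 CPM in the endothelial group. Tyk2, the other type I receptor kinase, did not exceed a mean of 18.1 CPM in any type. Stat2, which carries the type I signal, was at 28.9 to 55.1 CPM in the endothelial group of PFC, above the 17.9 CPM of the next highest library, and overlapped microglia in the striatum. Stat3, shared with cytokine receptors, was at similar means in the endothelial group and OPCs, 72.5 and 56.0 CPM in PFC and 74.4 and 76.3 in the striatum. In droplets with 1 to 100 UMIs, which hold free RNA, Jak1 was at 57.8 to 90.3 CPM in PFC and 50.6 to 58.4 in the striatum, and its endothelial mean in PFC lay within the former range.

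The IRFs differed among themselves. Irf7, the amplifier of the type I response, was at 94.1 to 107 CPM in the endothelial group of PFC and 65.6 to 107 in the striatum, against at most 10.8 and 40.2 CPM in any library of another type. Irf8, a factor of the macrophage lineage, was at 597, 384, 476 and 424 CPM in PFC microglia (WT 1, WT 2, Setd1a+/- 1 and Setd1a+/- 2) and at most 10.6 elsewhere. In striatal microglia Irf8 was at 290, 387, 241 and 59.8 CPM, the last being the library that stood apart. Irf1, a factor induced by interferon gamma, was highest and separate in the endothelial group in both tissues, with means of 86.8 and 77.6 CPM. Irf2, its antagonist, did not separate the endothelial group (104 CPM) from microglia (97.9 CPM) in PFC, and Irf3, the constitutive factor of virus sensing, was at similar means in astrocytes (62.7 CPM) and the endothelial group (60.0 CPM). Irf9 was separate in the striatal endothelial group only, with 55.9 to 71.9 CPM against at most 34.4, while in PFC 1 microglial library reached 70.9 CPM.

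Among the ISGs, the membrane restriction factor Ifitm3 was the most abundant, at 1313 ± 251 CPM (SD, n = 4) in the endothelial group of PFC and 1352 ± 223 in the striatum, with no other library above 292 and 460 CPM. Ifit1, which binds viral RNA, was at 171 to 260 CPM and 152 to 222 CPM, against at most 70.9 and 35.7 elsewhere. Rtp4 and Oasl2, antiviral effectors, were also separate in both tissues, at means of 123 and 98.7 CPM in PFC and 97.7 and 62.5 in the striatum. Xaf1, an apoptosis regulator, was separate at 145 and 117 CPM and was next highest in oligodendrocytes, at means of 77 and 55.8 CPM. Isg15, a ubiquitin-like modifier, and Rsad2, the antiviral enzyme viperin, were separate in the striatum and overlapped 1 or more libraries of other types in PFC. Bst2, the virus tether, was near equal in the endothelial group and microglia of PFC, 192 and 167 CPM. Ifit2 had its highest mean in OPCs in both tissues, at 32.2 and 14.0 CPM, but overlapped other types. Its endothelial means were 21.6 and 13.1 CPM, and it had 174 UMIs in the striatum, under 200. Mx1 had 14 UMIs in all PFC cells and 2 in all striatal cells, too few to place, and Oas1a had 41 and 124. The IFIT, IFITM, GBP and OAS genes and H2-D1 and H2-K1 have near-identical relatives, so reads shared between copies make their separate values uncertain.

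All 3 GBPs, which attack membranes of intracellular pathogens, were highest in the endothelial group. Gbp2, Gbp3 and Gbp7 had means of 90.9, 112 and 166 CPM in PFC and 58.5, 67.1 and 125 CPM in the striatum. They were separate from every other type in both tissues, except Gbp2 in the striatum, where 1 astrocyte library reached 53.1 CPM. The genes of MHC class I display were divided between the vessel wall and microglia. B2m, the light chain, was higher in microglia, at 3763 ± 418 CPM in PFC against 1511 ± 225 in the endothelial group (SD, n = 4), and the 2 types did not overlap. In the striatum B2m overlapped, at 2041, 2139, 2361 and 777 CPM in microglia against 1009 to 1575, and only the library that stood apart was below the endothelial range. The heavy chains H2-D1 and H2-K1 were higher in the endothelial group, with means of 1014 and 438 CPM in PFC against 641 and 207 in microglia. Psmb8, a subunit of the immunoproteasome that cuts the peptides, was higher in microglia of PFC, 203 against 128 CPM, while Psmb9 and the peptide transporter Tap1 overlapped between these types. OPCs were at 285 CPM for H2-D1 in PFC, above the 56.2 to 142 CPM of the droplets with 1 to 100 UMIs, and at 246 CPM for B2m, within the 167 to 406 CPM of these droplets.

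Within the endothelial group, members were compared between cells with endothelial and cells with mural markers, a split made after the data were seen. Endothelial cells were above mural cells in all 4 libraries without overlap for Irf9, Rtp4, B2m and H2-K1 in PFC. That is 4 of the 34 members with at least 200 UMIs in the tissue, against 6.01% of all genes with that many. In the striatum this held for Ifnar1, Irf1, Rtp4, Xaf1, Gbp7, B2m and H2-K1, 7 of 33 such members against 6.72%. No member was higher in mural cells in this sense, against 3.32% and 3.52% of all genes. Gbp2 and Gbp3 overlapped between endothelial and mural cells in both tissues and Gbp7 in PFC. Rtp4, for example, was at 109 to 154 CPM in endothelial and 53.4 to 84.4 CPM in mural cells of PFC. Mural cells numbered 25 to 61 per library, so some separations rest on few mural UMIs. These were 11 for Irf9 and 23 for Rtp4 in PFC and 17 for Irf1 in the striatum, against 375 for B2m in PFC. Irf9 was at 70.8 CPM in the lowest endothelial and 69.5 CPM in the highest mural library of PFC. Mural cells still carried most members, Ifitm3 at 1041 to 1460 CPM in PFC among them. A cell counted as mural if it had at least 3 mural marker UMIs and fewer endothelial ones, so it could hold endothelial RNA too. The part of such RNA in the mural values was not tested.

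Cells carrying several inducible ISGs at once were counted next, over Ifit1, Ifit2, Ifit3, Isg15, Oasl2, Oas1a, Usp18, Rsad2, Mx1, Rtp4, Xaf1 and Irf7. A cell was called ISG-rich if at least 3 of these 12 genes had a UMI. Of all ISG-rich cells, 566 of 596 (95%) in PFC and 664 of 692 (96.0%) in the striatum belonged to the endothelial group. They made up 36.2% of that group in PFC (95% Wilson interval 33.9 to 38.7%) and 33.2% in the striatum (31.2 to 35.3%), where these intervals cover counting error only. By the marker split, the share was 37.1% of endothelial and 27.6% of mural cells in PFC, and 35.4% and 14.4% in the striatum. Mural cells were less deep, with medians of 2069.5 against 2395 UMIs in PFC and 2009 against 2431 in the striatum. In other types the share was at most 3.69%, in striatal microglia, and 1 of 2775 excitatory neurons (0.036%) qualified although these cells were deeper, with a median of 6546 UMIs against 2368. The transcripts were spread widely over the endothelial group: 19.6% of its cells in PFC and 22.4% in the striatum had no UMI of the 12 genes, and the top 5% of cells held 22% and 21.4% of the UMIs. In astrocytes of PFC 89.5% of cells had none and the top 5% held 73.2% of the UMIs, and in microglia of PFC these values were 86.3% and 66.9%. The ISG-rich cells of these types, 6 astrocytes with 47.3% of the UMIs and 9 microglia with 42.7%, had endothelial markers at 4951 against 125 CPM in the other astrocytes and 11447 against 1147 CPM in the other microglia, and lower markers of their own type, 11906 against 16045 CPM of astrocyte and 12945 against 22445 CPM of microglial markers. In the 10 ISG-rich striatal microglia endothelial markers were at 8535 against 1161 CPM, neutrophil and monocyte markers at 1722 against 54.4 CPM and microglial markers at 7326 against 14206 CPM. The part of RNA or cells of other types in these shares was not tested. The summed level of the 12 genes in the endothelial group was 1033 to 1146 CPM over the 4 PFC libraries and 819 to 1201 CPM over the striatal ones.

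The share of ISG-rich cells depends on depth, since a deeper cell shows more genes. ISG-rich cells had a median of 3131.5 UMIs in PFC against 2097.5 in the other cells of the group. With every cell thinned to 1000 UMIs, the share was 9.15% in PFC and 9.01% in the striatum. By library it was 40.2 and 37.2% in the WT and 32.6 and 31.2% in the Setd1a+/- libraries of PFC before thinning, and 10.4 and 7.72% against 8.64 and 8.92% after it. In the striatum it was 39.7 and 35.5% in the WT and 29.3 and 22.3% in the Setd1a+/- libraries before thinning, and 10.9 and 9.40% against 7.59 and 7.14% after it. Thus the genotypes did not overlap in either tissue at the cells' own depth, overlapped in PFC at equal depth, and stayed apart in the striatum at equal depth, where the Wilson intervals of the libraries overlapped. With 2 genes required in place of 3, the thinned shares in the striatum overlapped, at 24.9 and 20.7% in the WT and 21.2 and 18.9% in the Setd1a+/- libraries. With 4 required they did not overlap, at 4.61 and 3.65% in the WT and 2.22 and 0.42% in the Setd1a+/- libraries, the last being 1 of 238 cells, and the Wilson interval of Setd1a+/- replicate 2 (0.074 to 2.341%) lay below those of WT replicate 1 (3.21 to 6.59%) and WT replicate 2 (2.347 to 5.63%), while that of Setd1a+/- replicate 1 (1.32 to 3.68%) overlapped both. By replicate number, the thinned share of the striatal Setd1a+/- library was below that of its WT library with 2, 3 or 4 genes required. In PFC with 3 required it was below for replicate 1 and above for replicate 2. No test was made on 2 libraries against 2.

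**Figure D2:**
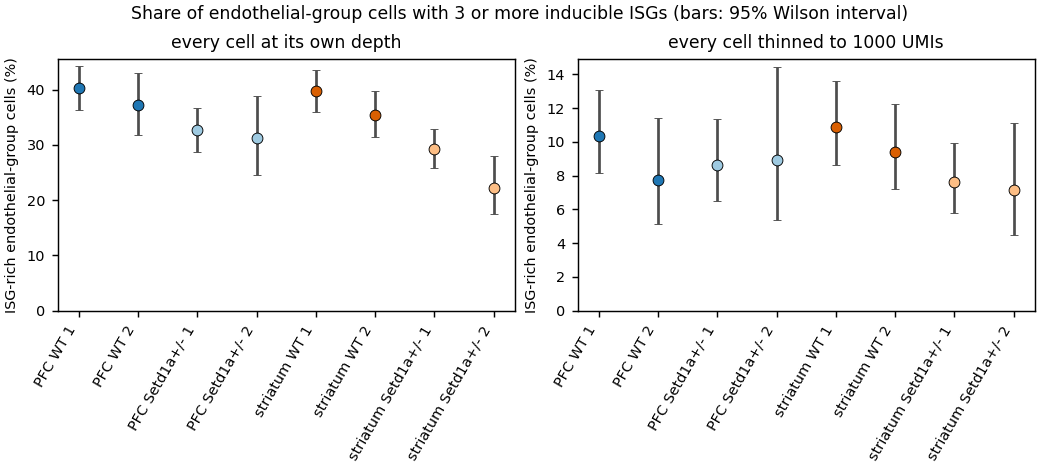
Share of endothelial-group cells with 3 or more of the 12 inducible ISGs in each of the 8 libraries, in percent, at the cells' own depth (left) and after thinning to 1000 UMIs per cell (right), with 95% Wilson intervals as bars. The shares of 22.3 to 40.2% fall to 7.14 to 10.9% at equal depth, and WT libraries lie above Setd1a+/- libraries in the striatum in both panels.

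The other 25 members played no part in the choice of ISG-rich cells and could be compared between these cells and the rest of the endothelial group in the same library. This comparison was added after the data were seen. Of the 20 members with at least 200 UMIs in the group in each tissue, 7 were higher in ISG-rich cells in all 8 libraries, and none was lower in all 8. Over all 3579 such genes, 4.75% were higher and 3.91% lower in all 8. The 7 members were Irf9, Ifitm3, Bst2, Gbp3, Gbp7, Psmb8 and H2-K1. When the cells were chosen on UMIs thinned to 1000 per cell, which left 14 to 66 ISG-rich cells per library with median depths of 1951.5 to 2474 UMIs against 2089 to 2824 in the other cells, again 7 of 20 members were higher in all 8 libraries, and the share of all genes was 1.15%. They were the same genes but for B2m in place of H2-K1. Within cells with endothelial markers alone, the thinned choice gave the same 7 as in the whole group, against 0.782% of all genes, with 0 members lower in all 8 and 0.754% of genes.

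In the thinned comparison Bst2 was at 340 CPM in ISG-rich and 193 CPM in the other cells (means of 8 libraries), a ratio of 1.76, and Gbp3 and Gbp7 were at 144 against 84.9 CPM and 233 against 138 CPM. Ifitm3 was at 1990 against 1277 CPM, Irf9 at 98.5 against 67.3 CPM and Psmb8 at 191 against 128 CPM. So 2 GBPs, the virus tether Bst2, an immunoproteasome subunit and Irf9 were higher in the cells with several of the 12 ISGs in each library. B2m, by contrast, differed by a ratio of 1.24, H2-D1 was higher in 7 of 8 libraries and H2-K1 in 6. Of the receptors, kinases, STATs and IRFs, Irf9 was higher in every library, and others were not. Jak1 was higher in ISG-rich cells in 2 of 8 libraries, Ifngr1 in 3, Stat3 in 4, Ifnar1 and Ifnar2 in 5 and Irf1 in 6. Ifitm2 was higher in 6 of 8 libraries in this comparison and in 1 of 8 at the cells' own depth. At the cells' own depth Stat2, under 200 UMIs in a tissue, was at 53.8 against 25.9 CPM and higher in 7 of 8 libraries, and in 5 of 8 in the thinned comparison. Marker sums were taken over the cells chosen at their own depth. In PFC endothelial markers summed to 19555 CPM against 19308 in the rest, mural markers to 4534 against 5436, microglial markers to 99.2 against 93.5, and T and NK cell markers to 37.3 against 48.4. In the striatum endothelial markers summed to 16720 against 15464 CPM and mural markers to 4155 against 4784. Hemoglobin genes there were at 25344 against 11854 CPM, B cell markers at 8.73 against 120, neuronal markers at 286 against 431, astrocyte markers at 230 against 412 and MSN markers at 111 against 202. The part of these in the result was not tested.

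**Figure D3:**
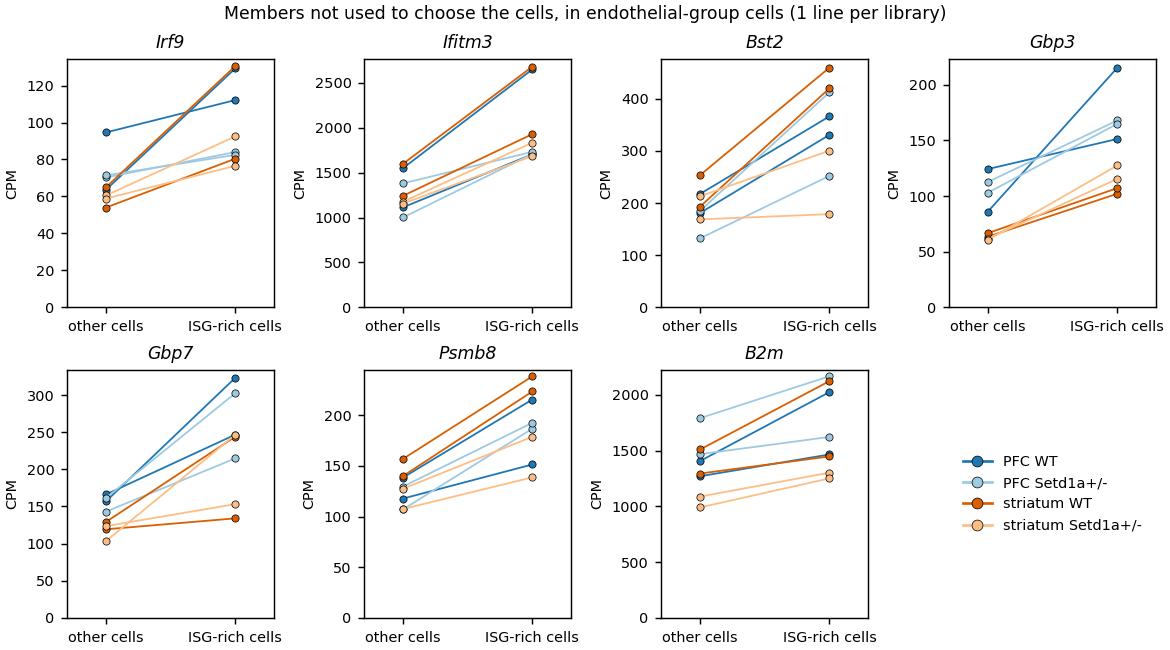
CPM of the 7 members that were not used to choose the cells and were higher in ISG-rich endothelial-group cells in all 8 libraries, with the other cells of the group at left and the ISG-rich cells (chosen after thinning to 1000 UMIs) at right of each panel and 1 line per library. Every line goes up, with a ratio of means from 1.24 for B2m to 1.76 for Bst2.

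The question the study was designed for is the effect of Setd1a heterozygosity, and no member passed the test for it in any cell type. UMIs summed per library were tested across all genes with the edgeR quasi-likelihood test, with Benjamini-Hochberg adjustment within a cell type, and called where the FDR was under 0.05 with an FC of over 1.5 in PFC or over 2 in the striatum. In PFC 36 members gave 110 tests in 8 types, with 0 called and 1 at an unadjusted p under 0.05 (1.76% of all tests). In the striatum there were 131 tests in 10 types, with 0 called and 7 at an unadjusted p under 0.05 (2.69% of all tests). DESeq2 called 0 as well. Over all genes edgeR called 0% in every type but D2 medium spiny neurons (MSNs) of the striatum, where it called 0.0397%, so the members' count of 0 is near that of all genes. With 2 libraries of pooled mice per group, the p-values measure the spread between these libraries only. Calls appeared when 1 Setd1a+/- library was left out, where the spread comes from the WT pair and the lone Setd1a+/- library is assumed to vary alike. Without striatal Setd1a+/- replicate 1, 5 tests were called, Isg15 in the endothelial group (log2 FC -1.24) and B2m (-1.52), H2-D1 (-2.08), Ifitm3 (-1.93) and Irf8 (-2.58) in microglia, where the remaining Setd1a+/- library is the one that stood apart. Striatal endothelial Isg15 was lower in replicate 2 than in replicate 1 of both genotypes. This fit thus sets a replicate 2 library against WT libraries of both numbers. The same-numbered pair was at 157 CPM in the WT and 98.3 CPM in the Setd1a+/- library. Over all annotated cells summed, members called without striatal Setd1a+/- replicate 1 were B2m (log2 FC -1.13), Bst2 (-1.14), Psmb9 (-1.41), Rsad2 (-1.31) and Xaf1 (-1.48). The remaining Setd1a+/- library held 238 endothelial-group cells among 2495, and the other striatal libraries 521 to 632 among 3795 to 4361. The part of this in those values was not tested. Without PFC Setd1a+/- replicate 2, Ifit3 was called in astrocytes (2.35). The remaining Setd1a+/- library had 63 astrocytes, and it held 3 of the 6 ISG-rich astrocytes of PFC, which carried endothelial markers. The part of these cells in the call was not tested.

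The study names Stat2 and Ifnar1 among the differentially expressed genes of PFC endothelial cells in Setd1a+/- mice. Its test compared cells, with an FDR under 0.05 and an FC above 1.5, where the test here compared summed libraries. Stat2 was at 55.1 and 47.7 CPM in the WT and 38.3 and 28.9 CPM in the Setd1a+/- libraries, without overlap, and its log2 FC was -0.54 (SE 0.29, 95% interval -1.12 to 0.04, edgeR FDR 0.999). In the striatum the log2 FC of Stat2 was 0.14 (SE 0.30). Ifnar1 in PFC had a log2 FC of -0.22 (SE 0.38), which became 0.53 without WT replicate 1, the library at 357 CPM. Neither gene passed the test, Stat2 with libraries that did not overlap and Ifnar1 with libraries that did.

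Of the 8 tests with an unadjusted p under 0.05, 4 were in the striatal endothelial group, 4 of 36 there against 2.23% of all genes, and all 4 were lower in Setd1a+/- mice. Psmb9, an immunoproteasome subunit, was at 67.6 and 64.5 CPM in the WT and 40.8 and 36.4 CPM in the Setd1a+/- libraries (log2 FC -0.72, SE 0.22, edgeR unadjusted p = 0.0093, FDR 1.00). Rsad2 was at 105 and 97.4 against 66.7 and 63.7 CPM (log2 FC -0.60), Ifnar2 at 70.1 and 88.8 against 52.9 and 45.5 CPM (-0.63), and Irf7 at 107 and 85.5 against 65.6 and 67.4 CPM (-0.51). In each of these 4 genes both Setd1a+/- libraries were below both WT libraries. The other 4 tests ran the other way: B2m in striatal oligodendrocytes was at 14.9 and 21.2 CPM in the WT and 36.8 and 37.8 CPM in the Setd1a+/- libraries (log2 FC 1.11, SE 0.33, edgeR unadjusted p = 0.0023, FDR 1.00), below the 116 to 217 CPM of B2m in droplets with 1 to 100 UMIs, which hold free RNA. Isg15 (2.39, SE 0.96) and Ifitm3 (0.94, SE 0.40) in striatal astrocytes and Irf1 (1.18, SE 0.42) in PFC OPCs also had positive log2 FCs, with edgeR FDRs of 0.931 to 0.999. With libraries left out, these ran from 1.69 to 3.43, from 0.44 to 1.68 and from 1.01 to 1.36. Striatal Setd1a+/- replicate 2 had 31 astrocytes, and 67 oligodendrocytes against 514 to 947 in the other striatal libraries.

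As a group, members in the striatal endothelial group lay on the lower side in Setd1a+/- mice. Of 33 members with at least 200 UMIs, 17 had both Setd1a+/- libraries below both WT libraries, against 17.5% of all genes, and 1, Jak1, had both above, against 12.7%. The 17 were Ifnar1, Ifnar2, Tyk2, Irf1, Irf7, Ifit3, Ifitm3, Oasl2, Usp18, Rsad2, Xaf1, Gbp2, Gbp3, Psmb8, Psmb9, B2m and H2-D1. The median log2 FC of the 36 tested members was -0.22, with 27 below 0, where the median of all genes was 0.00. By role, the medians were -0.38 for 6 genes of MHC class I display, -0.27 for 13 ISGs, -0.11 for 3 GBPs, -0.03 for 6 IRFs, -0.04 for 4 receptor chains and 0.13 for 4 kinases and STATs. In the PFC endothelial group 4 of 34 members had both Setd1a+/- libraries lower (Ifngr1, Stat2, Stat3 and Gbp2), against 16.2% of all genes. Both were higher for 5 (Irf3, Usp18, B2m, H2-D1 and H2-K1), against 10.8%. The median log2 FC there was -0.08, with 25 of 35 tested members below 0, where 50.4% of all genes were. Over all annotated cells summed, 30 of 36 members were below 0 in PFC (median -0.35) and 26 of 36 in the striatum (median -0.14). A lean to lower values was thus seen in both tissues. Members of a library share its mice and its preparation, so their common direction in 2 libraries against 2 is not independent evidence from gene to gene.

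No member was called for a difference of the genotype effect between the tissues (edgeR interaction term, 0 of 104 tests with an FDR under 0.05, 3 at an unadjusted p under 0.05 against 2.17% of all tests, and 0% of all genes called). The 3 were Usp18 (striatal minus PFC log2 FC of -0.87, SE 0.37) and B2m (-0.71, SE 0.30) in the endothelial group and Isg15 (4.17, SE 1.91) in microglia, the last from 17 and 29 UMIs in the 2 tissues. With libraries left out in turn, the library with few microglia among them, Isg15 ran from 2.23 to 6.98. Usp18 ran from -1.21 to -0.69 and B2m from -0.84 to -0.55. DESeq2 also called 0. The tissues' genotype effects on these genes were therefore not shown to differ.

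**Figure D4:**
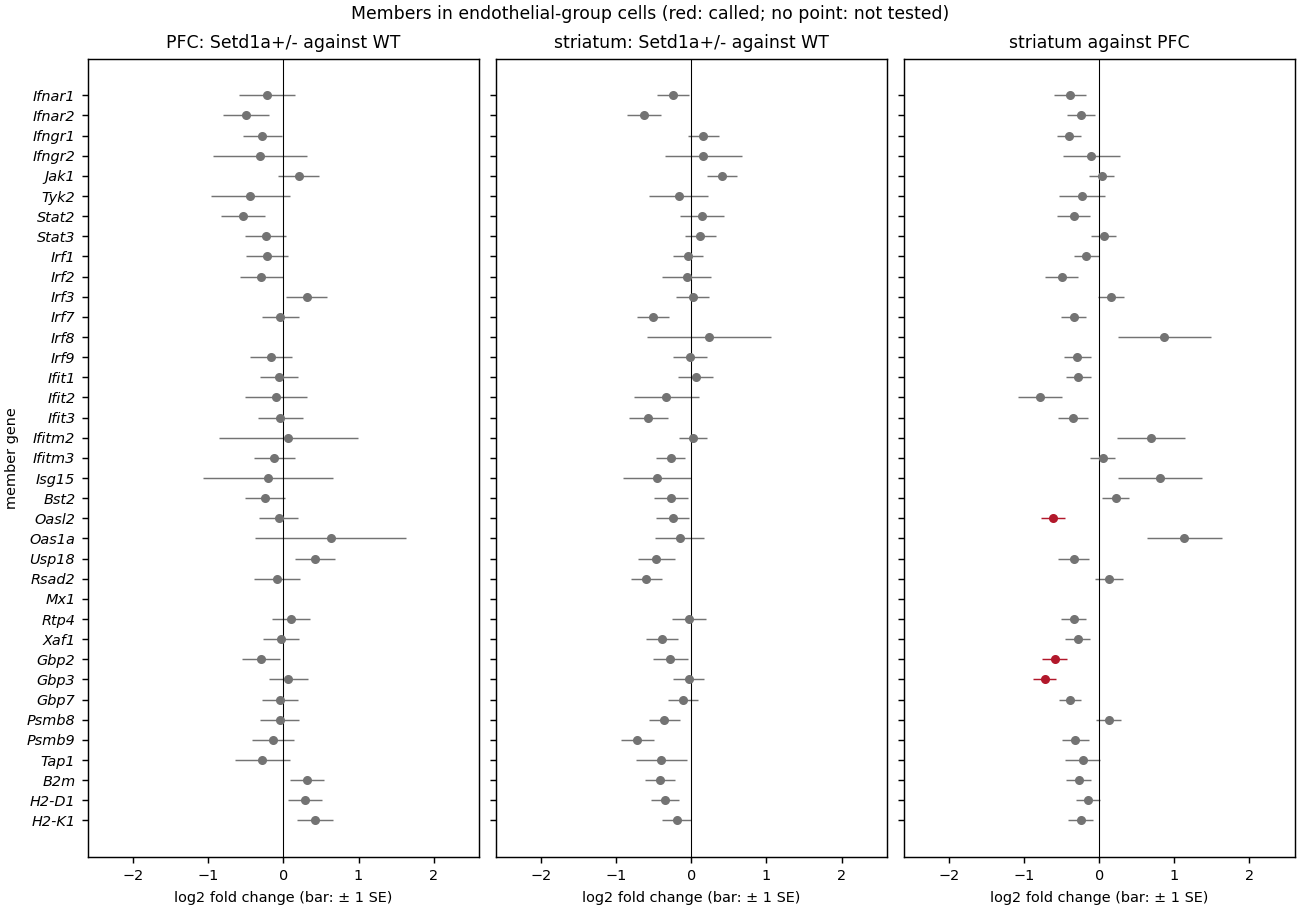
Log2 fold changes (x axis) of the members (rows) in the endothelial group for Setd1a+/- against WT in PFC and in the striatum and for striatum against PFC, with bars of 1 SE. In the genotype panels 25 of 35 points in PFC and 27 of 36 in the striatum lie below 0, and none was called. In the tissue panel the 3 called members, Oasl2, Gbp2 and Gbp3, are in red.

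Between the tissues, members called were mostly lower in the striatum. The same test compared striatum with PFC over all 8 libraries, with genotype as a covariate and an FC above 1.5, in the 7 cell types named alike in both tissues. Of 104 tests of members 9 were called, where 7.66% of all tests were, 8 lower and 1 higher in the striatum, and 21 had an unadjusted p under 0.05 (20.9% of all tests). Both counts are near those of all tests. The direction of the calls over all genes is given below for the endothelial group and microglia. Tissue cannot be told apart from dissection and from digestion time, which the methods give as 30 min for PFC and 40 min for the striatum and the labels otherwise.

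In the endothelial group 3 of 36 members were called, all lower in the striatum, where 7.33% of all genes were called, 1.51% lower and 5.82% higher in the striatum. Gbp3 was at 127, 94.1, 117 and 109 CPM in PFC (WT 1, WT 2, Setd1a+/- 1 and Setd1a+/- 2) and at 67.6, 69.7, 65.6 and 65.6 CPM in the striatum (log2 FC -0.73, SE 0.16, edgeR FDR 0.0096). Oasl2 was at 98.2, 106, 89.4 and 101 CPM in PFC and at 72.5, 65.8, 60.6 and 51 CPM in the striatum (log2 FC -0.62, SE 0.16, edgeR FDR 0.025). Gbp2 was at 97.7, 106, 82.6 and 77.2 CPM in PFC and at 67.0, 65.1, 60.1 and 41.9 CPM in the striatum (log2 FC -0.59, SE 0.16, edgeR FDR 0.034). For each of the 3 genes every striatal library was below every PFC library. The same held for Gbp7 (149 to 174 against 113 to 141 CPM), which was not called (log2 FC -0.39, edgeR FDR 0.14). In all, 4 of 33 members had the striatal libraries lower without overlap, against 5.21% of all genes, and 0 had them higher, against 9.71%. Gbp3 was called with each library left out but PFC WT replicate 1 (log2 FC -0.65, edgeR FDR 0.074 without it). Oasl2 and Gbp2 were at an edgeR FDR of 0.072 and 0.098 without that library and also lost the call without striatal WT replicate 1 (0.055 and 0.098), striatal WT replicate 2 (0.091 and 0.12) or striatal Setd1a+/- replicate 2 (0.051 and 0.067), Oasl2 also without PFC Setd1a+/- replicate 2 (0.052) and Gbp2 also without PFC WT replicate 2 (0.050) or PFC Setd1a+/- replicate 1 (0.059). Another fit left out cells holding 2 or more UMIs of a marker list of another lineage and kept 43 to 160 cells per library. The lists were mural, fibroblast, microglial, perivascular macrophage, T and NK cell, B cell, and neutrophil and monocyte markers, and not hemoglobin genes. In this fit Gbp3 (-0.94, edgeR FDR 0.023) and Gbp7 (-0.81, 0.038) were called, as were the ISGs Rtp4 (-1.04, 0.015) and Ifit1 (-0.80, 0.030). All of these were lower in the striatum, while Oasl2 (-0.34, 0.53) and Gbp2 (-0.75, 0.13) were not called. Without the top 5% of cells by UMIs Oasl2 was not called either (-0.54, 0.061). Gbp2 and Gbp3 bear the ISRE cores shown above, and no core of either kind was found in the Oasl2 window.

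The differences of the GBPs and Oasl2 were not shared by all ISGs. Ifitm3 differed by a log2 FC of 0.05 and Rsad2 by 0.13, and Oas1a (1.13), Isg15 (0.81) and Ifitm2 (0.69) had positive values, all with an edgeR FDR above 0.05. Oas1a was called higher in the striatum without the low-count filter (1.12, edgeR FDR 0.013) and without PFC Setd1a+/- replicate 2 (1.60, 0.022), and ran from 0.61 to 1.60 with libraries left out. The 25 negative log2 FCs among 36 gave a median of -0.26. Isg15 and Ifitm2 also varied with the library number in both genotypes: in the endothelial group of PFC Ifitm2 was at 235 and 183 CPM in the replicate 1 libraries and 555 and 617 CPM in the replicate 2 libraries, and Isg15 was at 75.6 and 53.3 against 184 and 171 CPM. In the striatum Isg15 was higher in the replicate 1 libraries, 313 and 226 against 157 and 98.3 CPM. Among members with at least 100 UMIs in the group, no other differed by over 1.5-fold between replicate 1 and replicate 2, in the same direction, in both genotypes.

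Other genes of the pathway came from lists compiled beside the members. In the endothelial group 6 of 43 other ISGs tested were called, where 7.33% of all genes were called, all 6 lower in the striatum, and 9 of the 43 had a positive log2 FC. They included the interferon-inducible GTPases Irgm1 (14.2 against 38.4 CPM, log2 FC -1.40), Gbp9 (26.8 against 56.7 CPM, -1.10) and Iigp1 (56.8 against 99.6 CPM, -0.85), and Slfn5 (148 against 261 CPM, -0.79) and Ifi44 (28.8 against 55.9 CPM, -0.93). Their edgeR FDRs ran from 0.0017 to 0.012. H2-T23, a nonclassical MHC class I heavy chain, was the 1 of 17 other class I genes called, at 25.5 against 54.7 CPM (-0.99, edgeR FDR 0.016). The 1 of 17 is near the 7.33% of all genes. None of 4 MHC class II genes was called, all 4 with positive log2 FCs, and of the interferon genes themselves none had enough UMIs to be tested, with 5 and 2 UMIs in the endothelial group of PFC and striatum. Endothelial markers summed to 17657 to 20444 CPM in the PFC group and 13168 to 16472 in the striatal group, and neuronal markers to 108 to 288 and 301 to 523 CPM. Both moved with the tissue, and their part in the lower GBP and Oasl2 levels was not tested.

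In microglia 4 of 18 members were called, all lower in the striatum, where 20.7% of all genes were called and 8.03% were called lower. The count of 4 is thus near that of all genes called in either direction. B2m was at 4113, 3278, 4112 and 3551 CPM in PFC and 2041, 2139, 2361 and 777 CPM in the striatum (log2 FC -1.20, SE 0.32, edgeR FDR 0.019). Ifngr1 was at 741, 297, 537 and 629 CPM in PFC and 298, 193, 366 and 105 CPM in the striatum (log2 FC -1.31, edgeR FDR 0.029). Irf8 had a log2 FC of -1.10 (edgeR FDR 0.033). B2m did not overlap between the tissues, and Ifngr1 and Irf8 did. Psmb9 was at 50.6 to 101 CPM in PFC and at 29.4, 60.1, 26.8 and 0 CPM in the striatum (log2 FC -1.36, edgeR FDR 0.032). DESeq2 did not call Psmb9 (FDR 0.10), library size scaling called neither Psmb9 (0.066) nor Irf8 (0.070), and without the top 5% of cells by UMIs only B2m was called (0.046). Ifitm2, with 33 UMIs in PFC and 115 in the striatum, ran the other way, at 16.0, 103, 30.4 and 9.76 CPM in PFC and 71.4, 176, 237 and 59.8 CPM in the striatum (log2 FC 1.85, SE 0.72, edgeR FDR 0.10). It was called higher in the striatum without the low-count filter (1.81, 0.00029) and without PFC WT replicate 2 (2.88, 0.0016).

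Without the striatal Setd1a+/- replicate 2 library, with its 24 microglia, the log2 FC of B2m was -0.89 (edgeR FDR 0.011), that of Ifngr1 -1.06 (0.046), that of Irf8 -0.80 (0.044) and that of Psmb9 -1.18 (0.052), so Psmb9 was no longer called. Without PFC WT replicate 1, PFC Setd1a+/- replicate 2 or striatal WT replicate 1 none of the 4 was called, with log2 FCs of B2m of -1.18, -1.17 and -1.20 (edgeR FDR 0.064, 0.059 and 0.069), and without striatal WT replicate 2 only Psmb9 was (-1.77, 0.046). Without PFC Setd1a+/- replicate 1 Irf8 was not called (-1.12, 0.056). Microglial markers themselves were lower in striatal microglia, at 7560 to 16307 CPM against 16478 to 25891 in PFC, and neuronal markers were higher, at 785 to 2017 against 92.2 to 444 CPM, without overlap in either. Perivascular macrophage markers were at 516, 361, 437 and 0 CPM in the striatum against 0 to 130 in PFC, and neutrophil and monocyte markers at 29.9 to 192 against 0 to 40.5 CPM. The part of these in the lower member levels was not tested. Of other pathway genes in microglia, 2 of 6 signaling genes, 2 of 10 ISGs and 1 of 9 class I genes were called, where 20.7% of all genes were. The DNA-sensing adaptor Tmem173 (log2 FC -1.56), the RNA sensor Tlr3 (-2.01), Trim12a (-1.11) and the chaperone Canx (-0.79) were called lower, and the ISG Ifi27l2a (1.62) was called higher. Of 6 MHC class II genes 0 were called, and their sum was at 714, 5468, 370 and 3003 CPM in the striatal and 284 to 629 CPM in the PFC libraries.

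**Figure D5:**
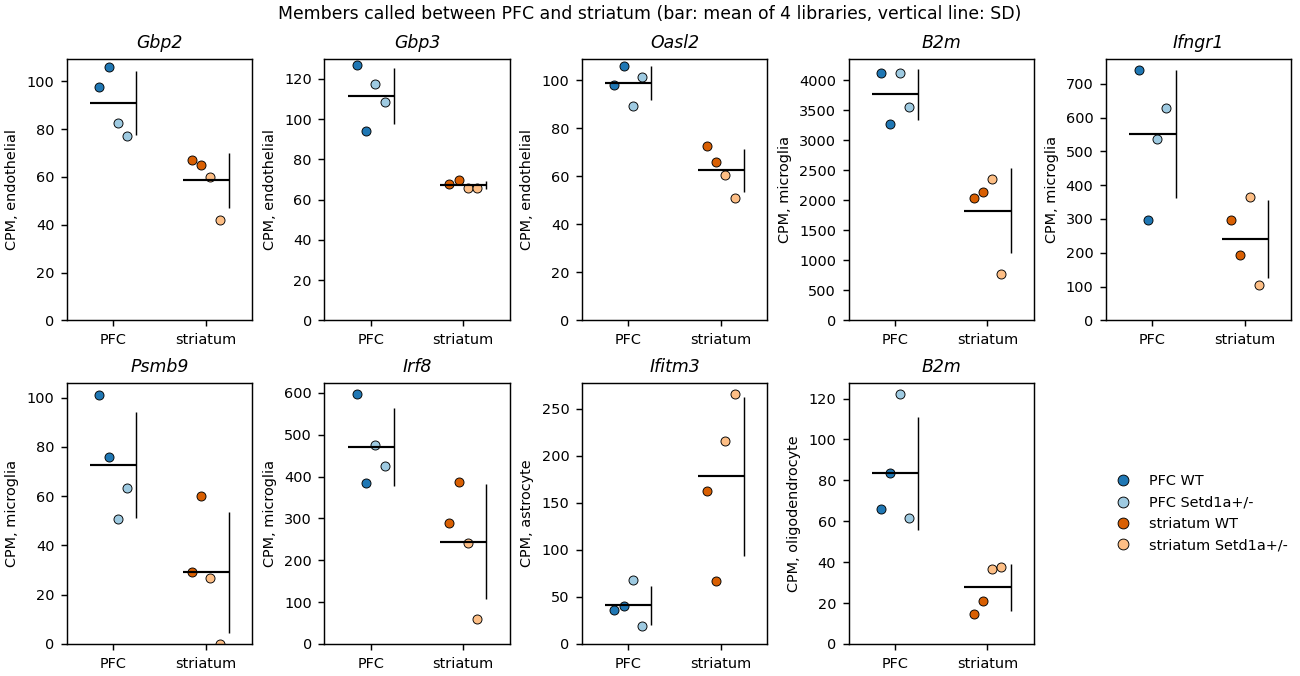
CPM of the 9 pairs of member and cell type that were called between PFC and striatum, 1 point per library, with the mean of 4 libraries as a horizontal bar and the SD as a vertical line. Gbp2, Gbp3 and Oasl2 in the endothelial group and B2m in microglia and oligodendrocytes do not overlap between tissues, and the lowest striatal microglia point of B2m, Ifngr1, Psmb9 and Irf8 is the library with 24 microglia.

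Outside these types, Ifitm3 in astrocytes was the member called higher in the striatum, at 36.2, 40.3, 68.4 and 19.0 CPM in PFC and 163, 67.3, 216 and 265 CPM in the striatum (log2 FC 2.06, SE 0.36, edgeR FDR 0.00055). It was 1 of 12 members tested, where 13% of all genes were called, and 1 striatal library overlapped PFC. The call was lost in the WT libraries alone. Droplets with 1 to 100 UMIs held Ifitm3 at 62.2 to 130 CPM in PFC and 73.1 to 153 CPM in the striatum. Endothelial markers in astrocytes went the other way, at 117 to 675 CPM in PFC and 63.7 to 118 in the striatum. Hemoglobin genes were at 7189 CPM in the astrocytes of striatal Setd1a+/- replicate 2, which had 31 of them, and at 41.2 to 112 CPM in the other striatal libraries. The part of these in the Ifitm3 difference was not tested. In oligodendrocytes B2m was the 1 of 11 members called, where 3.62% of all genes were called, at 66.1, 83.7, 122 and 61.4 CPM in PFC and 14.9, 21.2, 36.8 and 37.8 CPM in the striatum (log2 FC -1.66, SE 0.25, edgeR FDR 0.0021). These levels were below those of B2m in the droplets with 1 to 100 UMIs, 167 to 406 CPM in PFC and 116 to 217 in the striatum, and microglial markers in oligodendrocytes were at 173 to 394 and 33 to 50 CPM. The part of free or microglial RNA in the B2m difference was not tested. The B2m call was lost in the Setd1a+/- libraries alone, of which striatal replicate 2 had 67 oligodendrocytes. H2-K1 was also called lower in striatal oligodendrocytes with replicate number as a block (log2 FC -1.15, edgeR FDR 0.044) and without PFC Setd1a+/- replicate 2 (-1.31, 0.021). Of the other pathway genes, the class I chaperone Calr was called higher in the striatum in astrocytes (142 CPM in PFC against 398 in the striatum, log2 FC 1.36, edgeR FDR 0.0019) and in interneurons (188 against 329 CPM, 0.85, 0.016). In interneurons Ly6e (1.46) and H2-T22 (1.37) were also called higher, as was Ifi27 in oligodendrocytes (0.59), while Tlr3 was called lower in astrocytes (-0.87).

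No member was called in OPCs (0 of 16, 2 at an unadjusted p under 0.05, where edgeR called 0.475% of all genes and 13.5% had such a p), newly formed oligodendrocytes (0 of 3, 0 at an unadjusted p under 0.05, 0.106% and 9.43%) or interneurons (0 of 8, 0 at an unadjusted p under 0.05, 12.1% and 24.8%). Ifit2 in interneurons, named here after its value was seen, did not pass the low-count filter. DESeq2 called it (log2 FC -3.03, FDR 0.0054), and so did edgeR without the filter (-2.81, FDR 0.00017). It was also called in 6 of 8 fits with a library left out. The filter is set by the smallest group, so in these fits it was looser and a gene high in a single library could pass. They are thus not separate support. DESeq2 called no member in the other 2 types. In OPCs 14 of 16 members had a negative log2 FC, with a median of -0.31 against -0.03 over all genes. The 2 lowest p-values there were those of Ifnar1 (-1.0, SE 0.33) and Ifit2 (-1.08, SE 0.36), with edgeR FDRs of 0.18. Ifit2 is the ISG with its highest mean in OPCs, though overlapping other types. Both were called without PFC WT replicate 2, Ifnar1 at -1.26 (edgeR FDR 0.038) and Ifit2 at -1.41 (0.023).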

How the data were processed

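Single-cell libraries of PFC and striatum (8, each of 2 pooled mice) were analysed. The authors aligned reads to mm10 with Cell Ranger 3.0.2, clustered and named cells with Seurat 3.2.0 (versions from the submitters' processing notes), kept cells of 800 genes or more with a mitochondrial share of up to 10%, and deposited raw UMI counts per gene and barcode with cell type labels. How they treated doublets was not used here, no doublet caller was run, and leaving out the top 5% of cells by UMIs was an alternative. The matrices held 15154268 to 26277553 UMIs per library.

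Members and lists were chosen with earlier results of these data known. Counts were summed per library and cell type and tested with edgeR 4.0.16 in R 4.3.3 (TMM scaling, filterByExpr with a minimum count of 10, robust quasi-likelihood test, Benjamini-Hochberg adjustment over all genes of a type). Calls needed an FDR below 0.05, with an FC over 1.5 (PFC genotype, tissue) or over 2 (striatal genotype), and for the interaction the FDR only. Positive log2 FCs are higher in Setd1a+/- or in the striatum. SEs were approximated as the log2 FC over the square root of F, and intervals as 1.96 SEs. DESeq2 1.42.0 was an alternative. The edgeR fits of the striatal genotype contrast and of the tissue contrast were tested on simulated counts of the endothelial group. Named were members called or at an unadjusted p under 0.05 between genotypes, members called between tissues, Stat2 and Ifnar1 in PFC endothelial cells, members whose highest type stood apart, and at most 5 genes per other list. Per the methods, a replicate number joined 1 WT and 1 mutant sample. The deviations of same-numbered libraries from their group means correlated at 0.101 to 0.739 over 8 cell types in PFC and 0.102 to 0.609 over 10 in the striatum, so the numbers were treated as pairs in an alternative. The result of a signaling gene outside the members is not reported here.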

Additional observations from a re-analysis of the deposited data

How the results depend on the processing

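Under the alternatives, 182 values of the summary results stayed the same by the criteria used and 42 moved. With libraries left out in turn, the members called numbered 0 to 1 (PFC genotype) and 0 to 5 (striatal genotype, over types and also over all cells summed), and between tissues 0 to 4 (endothelial group), 0 to 6 (microglia), 1 to 2 (astrocytes), 1 to 2 (oligodendrocytes), 0 to 2 (OPCs) and 0 to 2 (interneurons). Tissue calls in WT or in Setd1a+/- libraries alone, with 2 libraries a tissue, fell to 0 in the endothelial group and microglia, in WT alone to 0 in astrocytes, and in Setd1a+/- alone to 0 in oligodendrocytes. In microglia 2 were called with library size scaling and 1 without the top 5% of cells by UMIs. Without the low-count filter 2 were called in astrocytes, 1 in interneurons, where DESeq2 also called 1, 6 in microglia (gaining Irf2, lower, and Ifitm2, higher in the striatum) and 4 in the endothelial group (gaining Oas1a, higher). The replicate block called 2 in oligodendrocytes, H2-K1 (log2 FC -1.15, edgeR FDR 0.044) beside B2m, and changed no other call of a member. In the tissue contrast the block was a replicate term common to both tissues, and not a pair of WT and mutant within a tissue. Ifnar1 between genotypes in the PFC endothelial group turned from -0.22 to 0.53 without WT replicate 1 (range -0.69 to 0.53 over libraries left out). Striatal members highest in microglia numbered 3 to 5 with libraries left out. The share of ISG-rich cells was 57.2% and 52.1% (PFC, striatum) with 2 genes required, 22.2% and 19.0% with 4, 9.15% and 9.01% after thinning, 33.7 to 38.0% and 30.4 to 35.1% with libraries left out, and 35.4% in the striatal endothelial subset, an alternative chosen after seeing the data. The cause of these changes was not tested. Depth limits the types with few cells, such as newly formed oligodendrocytes (22 to 102 per library) and microglia (24 to 265), and low members such as Mx1.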
